A study of Mus musculus with 3 samples.

Results

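Steroid hormone metabolising enzymes of the liver were followed in RNA sequencing libraries of mouse liver through 9 named genes: the hydroxysteroid dehydrogenase and isomerase genes Hsd3b2, Hsd3b3 and Hsd3b5, the cytochrome gene Cyp17a1, the reductase gene Srd5a1, and the dehydrogenase genes Hsd11b1, Hsd17b2, Hsd17b6 and Akr1c6. They were taken by symbol from the 41799 genes of the deposited tables, and all 9 passed a mean of 1 CPM (the count relative to the TMM-adjusted library total), as did 13153 genes in all. All animals were male C57BL/6 mice aged 14 weeks. In the first group the high-fat diet (HFD) was combined with DfCS-Ib, known here by its code name, given in water by gavage at 40 mg/kg; the series' design text speaks of a sulfated oligosaccharide. The second group had the HFD without DfCS-Ib, and the third, the normal control, had regular chow. The labels give 8 mice per group, speak of 5 groups while describing these 3, and do not say how many mice gave RNA to a library.

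Liver takes up steroid hormones from the blood and reduces, oxidises, hydroxylates and conjugates them, and this sets how much active hormone leaves or stays in the organ. Hydroxysteroid dehydrogenases turn ketone groups of steroids into hydroxyl groups or the reverse, and so switch androgens, oestrogens and glucocorticoids between active and weak forms. In mice several of these genes differ between the sexes in liver, under the pattern of growth hormone secretion.

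There was 1 library per group, with 10969699 counts for DfCS-Ib, 12279537 for HFD and 11028671 for chow. No difference therefore has a replicate check, no p-value was computed, and every ratio describes these libraries and not the conditions. Ratios are of TMM-scaled counts, with 95% exact intervals in parentheses that cover counting error only. Log2 ratios are of CPM plus 1, and a gene was counted as at least 2-fold higher or lower on that scale. The genes were chosen with results from these same libraries known, so their values are a description. As a check of the tissue, none of the 6 hepatocyte markers was at 0, and they summed to 115139 CPM in the DfCS-Ib library, 103451 in the HFD library and 131729 in the chow library. Most of each sum was Alb, at 93946, 85030 and 112771 CPM in these libraries. Of the 6, 4 were lower in HFD than in chow, Tat (2.39-fold) and Cps1 (2.31-fold) by at least 2-fold, beside 2.27% of all measured genes. In DfCS-Ib over HFD 5 of the 6 were higher, Tat by 2.58-fold. Of 8 markers of adrenal cortex, which makes steroids from cholesterol, 6 were at 0 in all libraries, among them Cyp11a1, Cyp11b1 and Cyp11b2, and the list summed to 3.54, 2.25 and 2.97 CPM in the DfCS-Ib, HFD and chow libraries. Cyp21a1 is another of the 6, but no chromosome position could be read for it, so its 0 was not used as a check. The hepatocyte marker Cps1 had no readable position either, so its count calls for the same caution. Leydig cell markers summed to 3.26, 2.49 and 2.97 CPM in the same libraries, with Cyp11a1 and Lhcgr at 0, and 4 of 5 kidney markers were at 0 throughout, the other, Umod, having 2 counts in the DfCS-Ib library. A gene at 0 could still have up to 3 counts, or 0.280, 0.233 and 0.279 CPM in the DfCS-Ib, HFD and chow libraries.

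The 3 Hsd3b genes lie in 1 cluster on chromosome 3 of mm10, all on the minus strand. Hsd3b5 spans 98618636 to 98645534, Hsd3b2 spans 98711107 to 98724594 and Hsd3b3 spans 98741476 to 98763128. These genes shared the same order of libraries, which Hsd17b2 and Akr1c6 also had, so the order is not particular to the cluster. The 250 bases upstream of the RefSeq starts of the 3 Hsd3b genes (GRCm38.p6, minus strand) are shown here. Capitals mark runs of at least 12 bases that occur in another of the 3 windows. The windows are chr3:98645535-98645784 for Hsd3b5, chr3:98763129-98763378 for Hsd3b3 and chr3:98724544-98724793 for Hsd3b2.
Hsd3b5: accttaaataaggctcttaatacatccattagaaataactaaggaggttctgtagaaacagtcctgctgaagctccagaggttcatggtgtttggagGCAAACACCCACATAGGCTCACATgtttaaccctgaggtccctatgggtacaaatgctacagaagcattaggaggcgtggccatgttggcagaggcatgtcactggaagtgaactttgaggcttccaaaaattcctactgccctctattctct
Hsd3b3: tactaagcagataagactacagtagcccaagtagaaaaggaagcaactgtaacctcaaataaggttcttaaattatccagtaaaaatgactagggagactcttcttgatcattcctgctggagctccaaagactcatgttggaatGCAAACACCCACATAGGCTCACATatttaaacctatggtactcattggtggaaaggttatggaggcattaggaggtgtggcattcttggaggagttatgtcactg
Hsd3b2: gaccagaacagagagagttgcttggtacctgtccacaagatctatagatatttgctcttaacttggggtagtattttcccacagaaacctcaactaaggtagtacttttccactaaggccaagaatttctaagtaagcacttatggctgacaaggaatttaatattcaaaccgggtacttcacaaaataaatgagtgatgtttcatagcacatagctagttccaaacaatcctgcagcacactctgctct

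The Hsd3b5 and Hsd3b3 windows share 1 unbroken run of 24 bases. On either strand it was found in 3 of 32851 upstream windows of the RefSeq table (0.00913%), which belong to these same genes, since Hsd3b3 has more than 1 start. The run was picked from these windows, so finding it there was fixed in advance, and the share does not measure rarity. Only exact runs were marked, so similar stretches with differences between the windows do not show. The Hsd3b2 window shares no run of 12 bases with either. For 7 of the 9 genes the table holds a window; Cyp17a1 and Hsd17b2 are the others. The STAT5 motif TTCNNNGAA, read on both strands, was in 0 of these 7 windows, against 7.02% of all windows of this length. TATAAA, read the same way, was in 1 of 7, that of Akr1c6, against 12.4% of all. No match says only that these letters are not in the window, and with 7 windows a count of 0 cannot be told apart from the share of all. The RefSeq start used for Hsd11b1 lay 21689 bases from the 5' end of the deposited gene, and that for Srd5a1 437 bases.

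Hsd3b5 encodes a ketosteroid reductase of male mouse liver that uses NADPH. It had 601 counts in the DfCS-Ib library, 3620 in the HFD library and 32 in the chow library, which is 34.1, 183 and 1.81 RPKM, the count scaled by gene length and library total. The HFD library was far above both others and the chow library lowest. The HFD to chow ratio was 94.6-fold (66.9 to 139), and its log2 ratio of 6.15 was the highest, rank 1, of the 13153 measured genes. The DfCS-Ib library lay 5.02-fold (4.61 to 5.48) below the HFD library and 18.8-fold (13.2 to 27.8) above the chow library.

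Hsd3b3, which belongs to the enzymes that oxidise and isomerise steroids with NAD, had 947 counts in the DfCS-Ib library, 2588 in the HFD library and 404 in the chow library (47.3, 115 and 20.1 RPKM). The order of the libraries was the same as for Hsd3b5, with a narrower range. Its ratio was 5.36-fold (4.82 to 5.96) for HFD over chow and 2.35-fold (2.09 to 2.65) for DfCS-Ib over chow, and the DfCS-Ib library lay 2.28-fold (2.11 to 2.46) below the HFD library. Hsd3b2, of the same kind, had 142 counts in the DfCS-Ib library, 530 in the HFD library and 97 in the chow library (5.84, 19.5 and 3.97 RPKM). For Hsd3b2 the DfCS-Ib library stood above chow by 1.47-fold (1.13 to 1.92) and the HFD library by 4.57-fold (3.67 to 5.73). The DfCS-Ib library was 3.11-fold (2.58 to 3.77) below HFD.

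**Figure D1:**
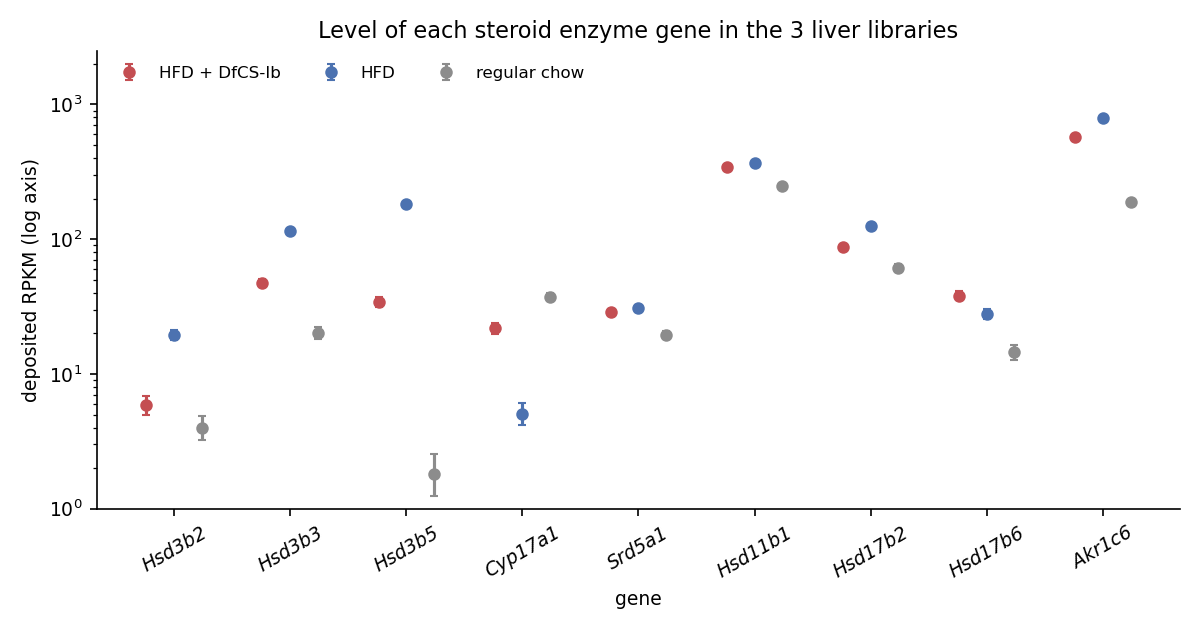
Deposited RPKM (log axis) of the 9 genes in the HFD + DfCS-Ib, HFD and regular chow libraries; bars are 95% exact Poisson intervals of the count. Hsd3b5 stands at 34.1, 183 and 1.81 RPKM in these libraries, and Cyp17a1 is the gene with its lowest value, 5.09 RPKM, in the HFD library.

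Close copies bear on how these reads were divided. In GENCODE M21 transcripts, 26.9% of the 50-base windows of Hsd3b2, 32.6% of those of Hsd3b3 and 21.2% of those of Hsd3b5 also occur in a transcript of another gene. Hsd3b2 and Hsd3b3 matched each other over 1479 aligned bases at 93.9% identity. Hsd3b6 was as close, at 94.3% to Hsd3b3 and 93.1% to Hsd3b2. The division of reads among these genes is therefore uncertain. Among the Hsd3b genes aligned, Hsd3b5 was nearest to Hsd3b4, at 93.3% over 1538 bases, and stood at 78.4% to Hsd3b3. The gene model Gm10681 also shares 50-base windows with Hsd3b5 but was not aligned. Every 50-base window of Hsd3b4 (100%) occurs in another gene as well, and reads with several placements may have been dropped or assigned in a way that the sources used here do not give. Hsd3b4 and Hsd3b6 were listed at 0 in all 3 libraries, Hsd3b1 had 0, 3 and 1 counts in the DfCS-Ib, HFD and chow libraries, and the Hsd3b-like gene model Gm10681 had 1 count in the HFD library and 0 in the others.

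A sum is less sensitive to the division of reads among the summed genes, but not to reads that also match Hsd3b4, Hsd3b6 or Gm10681. Hsd3b2, Hsd3b3 and Hsd3b5 together had 1690 counts in the DfCS-Ib library, 6738 in the HFD library and 533 in the chow library. The HFD sum was 10.6-fold (9.68 to 11.6) above chow, the DfCS-Ib sum 3.32-fold (3.15 to 3.51) below HFD and 3.18-fold (2.88 to 3.51) above chow. The makeup of the sum also differed. Hsd3b5 took 35.6% (33.3 to 37.9) of it in the DfCS-Ib library, 53.7% (52.5 to 54.9) in the HFD library and 6.00% (4.14 to 8.37) in the chow library. Hsd3b3 was the largest share in the DfCS-Ib library, at 56.0% (53.6 to 58.4), and in the chow library, at 75.8% (71.9 to 79.4), but not in the HFD library, at 38.4% (37.2 to 39.6).

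**Figure D2:**
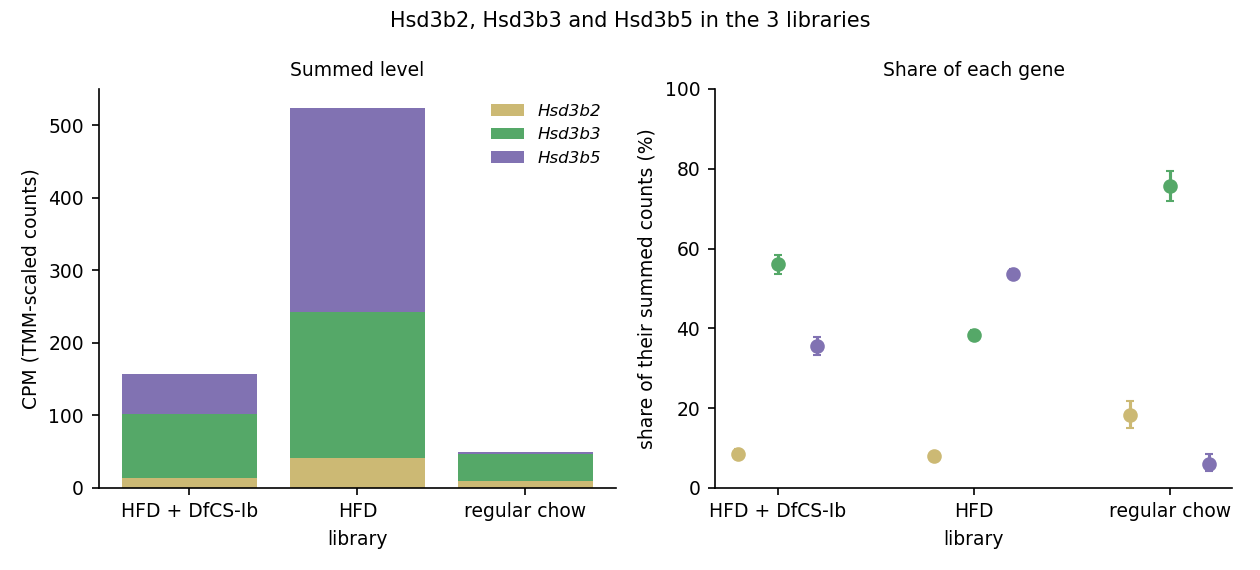
Left, CPM of Hsd3b2, Hsd3b3 and Hsd3b5 stacked for each library; right, the share of each gene in their summed counts with 95% exact binomial intervals. Hsd3b5 takes 35.6% in the HFD + DfCS-Ib library, 53.7% in the HFD library and 6.00% in the chow library.

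Hsd3b7, a distant relative on chromosome 7 that acts in bile acid synthesis, had 4151 counts in the DfCS-Ib library, 8851 in the HFD library and 2949 in the chow library. It was 2.51-fold (2.41 to 2.62) higher in the HFD library than in chow and 1.78-fold (1.71 to 1.84) lower in the DfCS-Ib library than in HFD. Of its 50-base windows 83.3% occur in other gene models, so its count is uncertain as well.

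Cyp17a1, the hydroxylase and lyase on the way to androgens (chromosome 19, 46667165 to 46673000), was the member with the opposite order. It had 440 counts in the DfCS-Ib library, 115 in the HFD library and 753 in the chow library (21.8, 5.09 and 37.1 RPKM). The HFD library was lowest, 7.83-fold (6.43 to 9.61) below chow, and its log2 ratio of -2.84 was the 15th lowest of the measured genes. In the DfCS-Ib library Cyp17a1 was 4.59-fold (3.73 to 5.69) above HFD and 1.71-fold (1.51 to 1.92) below chow. None of its 50-base windows occurs in another gene. Por, the reductase that passes electrons to microsomal cytochromes, had 9704 counts in the DfCS-Ib library, 2284 in the HFD library and 8110 in the chow library. It was thus low in the same library as Cyp17a1, 4.25-fold (4.05 to 4.45) below chow in the HFD library, and 5.10-fold (4.87 to 5.34) higher in the DfCS-Ib library than in HFD. Among markers of periportal hepatocytes 7 of 8 were also lower in the HFD library than in chow, while Cyp2f2 was 1.22-fold higher. Of the 8, 5 were at least 2-fold lower, beside 2.27% of all measured genes. In DfCS-Ib over HFD 3 of the 8 were at least 2-fold higher and 0 lower, beside 2.46% and 2.02% of all measured genes. None of the 8 was at 0, and the list summed to 11316, 6415 and 13096 CPM in the DfCS-Ib, HFD and chow libraries. Markers of pericentral hepatocytes went both ways: of 8, all measured, 1 was at least 2-fold higher in HFD over chow (Cyp1a2) and 1 lower (Oat, 2.49-fold). Slc1a2 was just short of 2-fold lower. Of all measured genes 3.47% were higher by as much in this comparison and 2.27% lower. In DfCS-Ib over HFD 2 of the 8 were at least 2-fold higher, Oat (2.20-fold) and Slc1a2 (2.08-fold), and 1 lower, Lgr5 (2.54-fold). The pericentral markers summed to 12084, 9163 and 9434 CPM in the DfCS-Ib, HFD and chow libraries. In whole liver fewer cells of a type and less RNA per cell cannot be told apart, and the part of zonation in these values was not tested.

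Srd5a1 encodes a steroid reductase that turns testosterone into dihydrotestosterone and also starts the breakdown of glucocorticoids. It lies on chromosome 13, 69573449 to 69611900, and had 1085 counts in the DfCS-Ib library, 1302 in the HFD library and 742 in the chow library (28.6, 30.7 and 19.5 RPKM). The DfCS-Ib and HFD libraries could not be told apart at this depth, with a ratio of 0.9995 (0.921 to 1.08). Both were above chow by 1.47-fold, with an interval of 1.33 to 1.61 for DfCS-Ib and 1.34 to 1.61 for HFD. Of its 50-base windows 16.5% occur in the gene model Gm17108.

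Hsd11b1 regenerates active glucocorticoid from its inert ketone in liver. It lies on chromosome 1, 193221640 to 193264049, and had 5800 counts in the DfCS-Ib library, 6951 in the HFD library and 4223 in the chow library (341, 365 and 247 RPKM). It too was nearly level between the DfCS-Ib and HFD libraries, with a ratio of 1.001 (0.966 to 1.04), and stood 1.38-fold above chow in both, with intervals of 1.32 to 1.43 in each case. H6pd, which supplies the NADPH for this reaction in the endoplasmic reticulum, had 48, 45 and 44 counts in the DfCS-Ib, HFD and chow libraries, within counting error of each other after scaling. Hsd11b2, which does the reverse reaction in kidney, was listed at 0 in all 3.

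Hsd17b2 encodes a dehydrogenase that oxidises oestradiol and testosterone to their weaker ketones (chromosome 8, 117700982 to 117759030). It had 1432 counts in the DfCS-Ib library, 2309 in the HFD library and 1007 in the chow library (87.2, 126 and 61.0 RPKM). The HFD library was highest, 1.92-fold (1.78 to 2.07) above chow, which is just short of 2-fold, and the DfCS-Ib library was 1.34-fold (1.26 to 1.44) below HFD and 1.43-fold (1.31 to 1.55) above chow. Without TMM scaling factors and with the deposited RPKM, Hsd17b2 passed 2-fold in HFD over chow.

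Hsd17b6, which oxidises androgens and related steroids (chromosome 10, 127990933 to 128007636), was higher in the DfCS-Ib library than in both others. It had 681 counts in the DfCS-Ib library, 558 in the HFD library and 260 in the chow library (38.1, 27.9 and 14.5 RPKM). The DfCS-Ib library was 1.46-fold (1.31 to 1.64) above HFD and 2.63-fold (2.27 to 3.04) above chow, and the HFD library 1.79-fold (1.55 to 2.09) above chow. It shares 12.1% of its 50-base windows with neighbouring retinol dehydrogenase gene models. Of these, Rdh18-ps had 14, 46 and 17 counts in the DfCS-Ib, HFD and chow libraries. Rdh1 had 4, 10 and 4 counts in the same libraries, and Rdh19 had 2, 0 and 0. The sum of Kupffer cell and macrophage markers had the same order of libraries, at 508, 278 and 225 CPM in the DfCS-Ib, HFD and chow libraries. All 6 were measured and highest in the DfCS-Ib library, 3 of them at least 2-fold above chow, beside 1.62% of all measured genes. Of these markers, Marco was lower in the HFD library than in chow, at 33 and 49 counts, and Vsig4 had a ratio of 1.02 between these libraries. The part of macrophage content in the Hsd17b6 values was not tested.

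Akr1c6 encodes the mouse aldo-keto reductase that makes testosterone from androstenedione. It lies on chromosome 13, 4434311 to 4457530, and was the most abundant member by RPKM in the DfCS-Ib and HFD libraries. It had 8766 counts in the DfCS-Ib library, 13472 in the HFD library and 2896 in the chow library (574, 789 and 189 RPKM). Chow stood apart as the lowest: the HFD library was 3.89-fold (3.74 to 4.05) and the DfCS-Ib library 3.04-fold (2.91 to 3.17) above it, while the DfCS-Ib library was 1.28-fold (1.25 to 1.32) below HFD. Its nearest relative by windows, Akr1c20, shares 1.68% of them.

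Counted by the 2-fold rule, 4 of the 9 genes were higher in the HFD library than in chow (Hsd3b2, Hsd3b3, Hsd3b5 and Akr1c6) and Cyp17a1 was lower, where 3.47% of all measured genes were higher by as much, 2.27% lower and 5.74% past 2-fold in either direction. In DfCS-Ib over HFD, Cyp17a1 was higher and the 3 Hsd3b genes were lower, where 2.46% of all genes were higher, 2.02% lower and 4.49% either. In DfCS-Ib over chow, Hsd3b3, Hsd3b5, Hsd17b6 and Akr1c6 were higher and 0 lower, where 1.62% of all genes were higher, 0.433% lower and 2.05% either. The median log2 ratio of the 9 was 0.93 for HFD over chow, -0.36 for DfCS-Ib over HFD and 0.55 for DfCS-Ib over chow, beside 0.02, -0.01 and 0.00 for all measured genes in the same comparisons. These shares are the background of the counts, and since the genes were chosen on these libraries nothing further is read from them. The comparisons share libraries, so they are not independent of each other. Of all genes, 457 were higher and 298 lower in HFD over chow, but 573 and 242 without TMM factors; in DfCS-Ib over HFD the numbers were 324 and 266, but 261 and 340 without TMM factors.

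**Figure D3:**
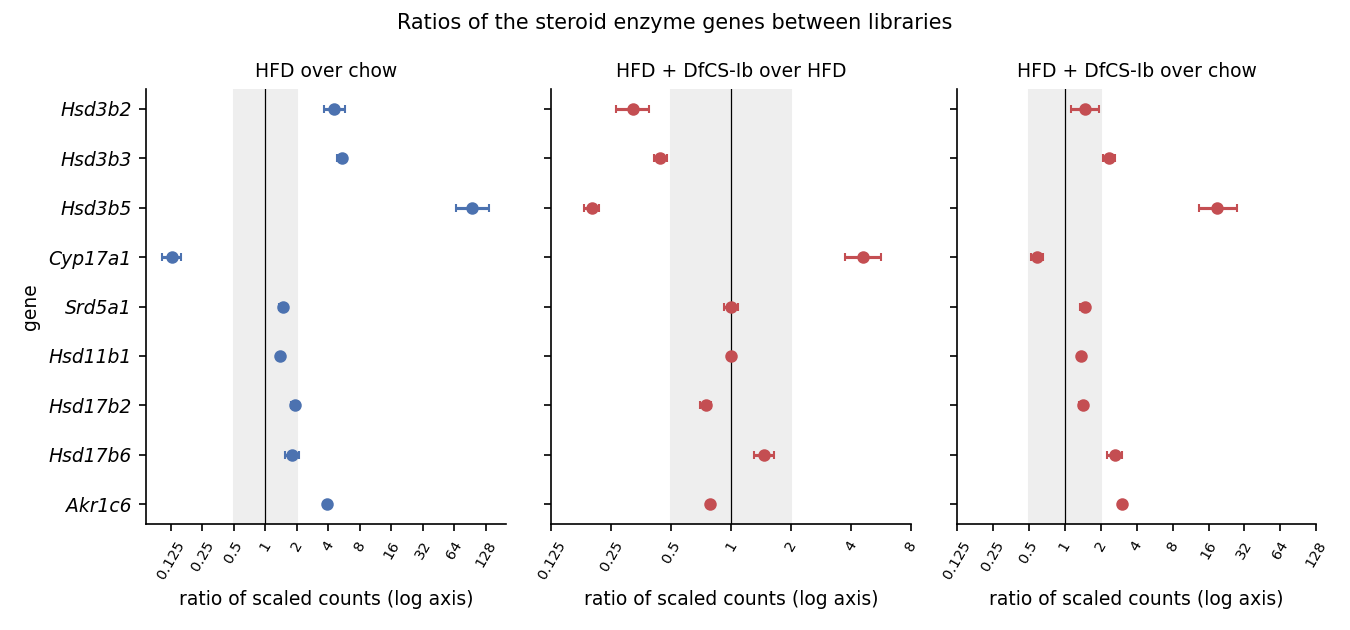
Ratio of scaled counts (log axis, 95% exact binomial intervals) of each gene in HFD over chow, HFD + DfCS-Ib over HFD and HFD + DfCS-Ib over chow; the grey band spans ratios below 2-fold either way. Hsd3b5 lies at 94.6 in the first panel, Cyp17a1 at 4.59 in the second, and Srd5a1 (0.9995) and Hsd11b1 (1.001) lie at the centre line of the second.

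The order of levels by RPKM changed between libraries. In the DfCS-Ib library it was Akr1c6, Hsd11b1, Hsd17b2, Hsd3b3, Hsd17b6, Hsd3b5, Srd5a1, Cyp17a1 and Hsd3b2, and the Poisson intervals of Hsd17b6 (35.3 to 41.1) and Hsd3b5 (31.4 to 36.9) overlapped. In the HFD library it was Akr1c6, Hsd11b1, Hsd3b5, Hsd17b2, Hsd3b3, Srd5a1, Hsd17b6, Hsd3b2 and Cyp17a1, where Srd5a1 (29.0 to 32.4) and Hsd17b6 (25.6 to 30.3) overlapped. In the chow library Hsd11b1 led Akr1c6, followed by Hsd17b2, Cyp17a1, Hsd3b3, Srd5a1, Hsd17b6, Hsd3b2 and Hsd3b5, and Hsd3b3 (18.2 to 22.1) and Srd5a1 (18.1 to 20.9) overlapped. Hsd3b5 thus stood last of the 9 in chow and 3rd in the HFD library, and Cyp17a1 last in the HFD library and 4th in chow.

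For 4 of the 9 genes a second model runs over the same bases on the other strand, and with no strand setting stated, their reads may have been mixed. Gm31825, inside Hsd3b3, had 105, 304 and 39 counts in the DfCS-Ib, HFD and chow libraries, or 11.1%, 11.7% and 9.65% of the Hsd3b3 count. LOC105246587, which overlaps Cyp17a1, had 33, 10 and 70 counts in the same libraries, or 7.50%, 8.70% and 9.30% of the Cyp17a1 count. Gm31774 had 3.63%, 3.59% and 3.67% of the count of Hsd17b2 in these libraries, and Gm31467 had 0.362%, 0.173% and 0.237% of that of Hsd11b1.

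Likeness of pattern was measured as the distance between the log2 ratios of HFD over chow and DfCS-Ib over HFD, which rest on 3 libraries. The nearest genes to Hsd3b5 were Car3 (carbonic anhydrase, distance 1.19), Aqp8 (a water channel, 2.22) and Thrsp (a lipogenic regulator, 2.31), so no gene came close to it. Cyp17a1 was nearest to Nnmt (nicotinamide methyltransferase, 0.21), Got1 (aspartate aminotransferase, 0.23) and Fam107a (0.25). Fam107a had 1 count in the HFD library, so its distance is uncertain. Next to Hsd3b3 was its overlapping model Gm31825 (0.03), and then Adh6-ps1 (0.11) and Serpina12 (0.22). Hsd3b2 was nearest to Gm15998 (0.04), Sc5d, a sterol desaturase gene (0.08), and Hectd2 (0.10). Gm15998 had only 8, 52 and 2 counts in the DfCS-Ib, HFD and chow libraries, so its distance is uncertain as well. Akr1c6 was nearest to Ddx60, Isg15 (both at 0.15) and Cmpk2 (0.17), which are genes induced by interferon. Hsd17b6 was nearest to Folr2 (0.11), a folate receptor gene, Fpr1 (0.12), a formyl peptide receptor gene, and Gbp5 (0.15). For Hsd17b2 286 other genes lay within 0.25. For Srd5a1 and Hsd11b1 the pattern was more common, with 669 and 1013 other genes within 0.25.

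The genes around these enzymes were taken from lists of the pathway. Over the 11 lists together, of 67 measured genes 10 were at least 2-fold higher and 5 lower in the HFD library than in chow (median log2 ratio 0.17), 2 higher and 6 lower in DfCS-Ib over HFD (median -0.19), and 3 higher and 5 lower in DfCS-Ib over chow (median 0.05). Of all measured genes 3.47%, 2.46% and 1.62% were higher by as much in these comparisons, and 2.27%, 2.02% and 0.433% lower. Among the other Akr1c genes, reductases of ketosteroids, all 5 measured genes had log2 ratios above 0 in HFD over chow and below 0 in DfCS-Ib over HFD, as did 6832 and 6771 of the 13153 measured genes in these comparisons. Of these, 2 were at least 2-fold higher in the HFD library. Akr1c20 had 469, 1125 and 290 counts in the DfCS-Ib, HFD and chow libraries and was 3.24-fold (2.85 to 3.70) above chow in the HFD library. Akr1c14 had 2985, 7284 and 2671 counts in the same libraries, 2.28-fold (2.18 to 2.38) above chow in the HFD library and 2.03-fold (1.95 to 2.12) lower in DfCS-Ib than in HFD. Akr1d1, the other main route of steroid ring reduction in liver, had 1397, 3112 and 1840 counts, with no ratio of 2-fold.

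Of the other dehydrogenases of the Hsd17b group, 7 were measured and 0 passed 2-fold in any of the 3 comparisons. Of all measured genes 5.74% passed in HFD over chow, 4.49% in DfCS-Ib over HFD and 2.05% in DfCS-Ib over chow. The median log2 ratios of the 7 were 0.04 for HFD over chow, 0.03 for DfCS-Ib over HFD and 0.06 for DfCS-Ib over chow. Their log2 ratios in HFD over chow ran from -0.67 for Hsd17b13 to 0.92 for Hsd17b12, the last close to the 0.93 of Hsd17b2. Cyp11a1, Cyp11b1, Cyp11b2 and Cyp19a1, which encode enzymes of steroid synthesis in adrenal or gonad, were listed at 0 in every library.

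Serpina6, which encodes the corticosteroid binding globulin of plasma, had 578 counts in the DfCS-Ib library, 1350 in the HFD library and 406 in the chow library. It was 2.78-fold (2.49 to 3.11) higher in the HFD library than in chow and 1.95-fold (1.77 to 2.15) lower in the DfCS-Ib library than in HFD. Of the steroid receptor genes, 6 of 9 were measured and 0 passed 2-fold in HFD over chow, beside 5.74% of all measured genes. All 6 had log2 ratios below 0 in DfCS-Ib over HFD, as did 6771 of the 13153 measured genes, and the counting interval of Esr1, an oestrogen receptor gene, included no difference. Nr3c1, the glucocorticoid receptor gene, had log2 ratios of 0.56 for HFD over chow and -0.24 for DfCS-Ib over HFD.

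Genes of the growth hormone axis, which sets the sex-dependent expression of several of these enzymes in mouse liver, differed in both directions. Of 12 measured genes, 3 were at least 2-fold higher and 3 lower in HFD over chow, beside 3.47% and 2.27% of all measured genes. The lower ones were Socs2, an inhibitor of growth hormone signalling, with 111, 82 and 369 counts in the DfCS-Ib, HFD and chow libraries, Bcl6, a transcriptional repressor, with 107, 91 and 377 counts, and Cux2, a factor of female-biased liver expression, with 6, 5 and 55 counts. For all 3 the DfCS-Ib library lay near the HFD library and away from chow. Onecut1, a hepatocyte transcription factor, had 73, 416 and 90 counts in the DfCS-Ib, HFD and chow libraries. It was 3.87-fold (3.07 to 4.91) higher in the HFD library than in chow and 4.75-fold (3.70 to 6.18) lower in the DfCS-Ib library than in HFD. Cish, a target gene of STAT5, had 62, 278 and 103 counts in the same libraries. Here the HFD library was the highest and the DfCS-Ib library the lowest.

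**Figure D4:**
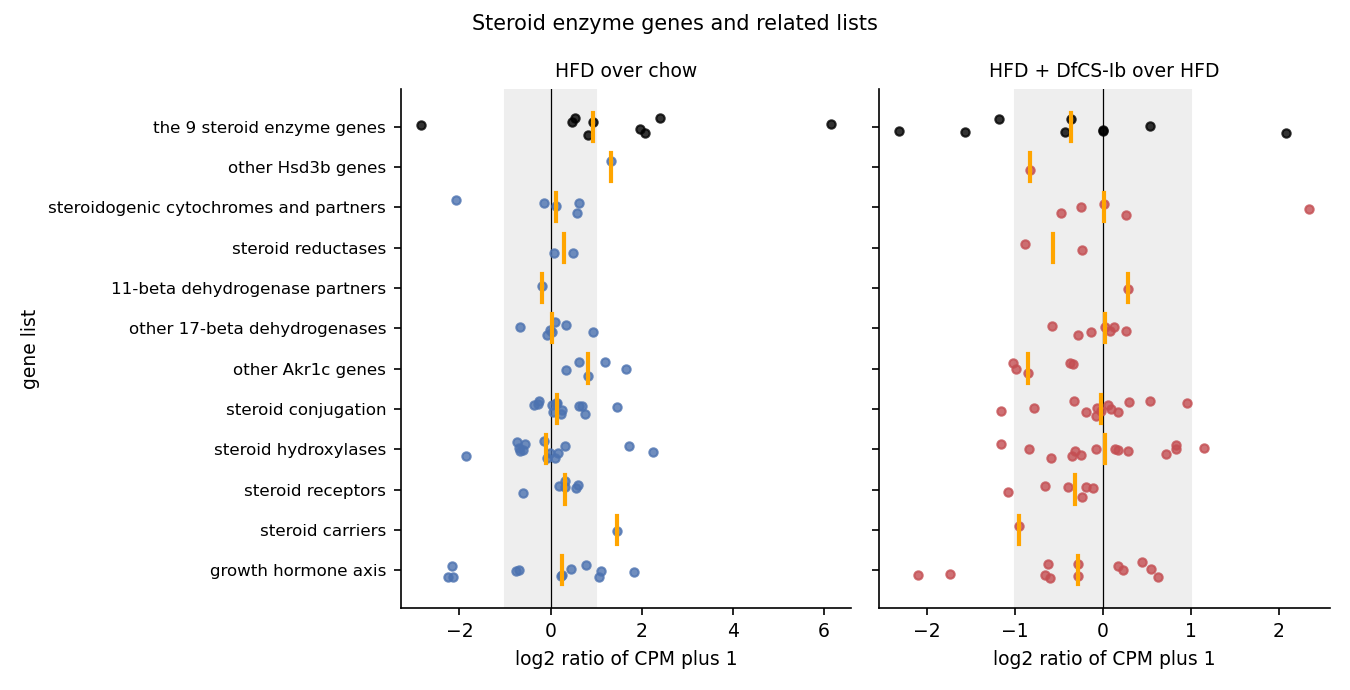
Log2 ratio of CPM plus 1 for each measured gene of the 9 steroid enzyme genes (black) and of the related lists, in HFD over chow and HFD + DfCS-Ib over HFD; orange lines are list medians and the grey band spans ratios below 2-fold. The 9 genes run from -2.84 to 6.15 in the first panel and from -2.31 to 2.08 in the second.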

How the data were processed

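Total RNA of liver, extracted with TRIzol, was sequenced on an Illumina instrument, 1 library per group. The authors deposited, per the file headers, raw read counts per gene and the RPKM, with each gene's position, strand and length; the deposited RPKM equalled the count over length and file total within 0.000506%, checked on genes of 100 or more counts. The submitters' processing notes name TopHat2 and the build mm10. How reads were counted (tool, strand, several placements, gene models) is not given in the sources used here.

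For CPM, library totals were multiplied by TMM factors, 0.978, 1.048 and 0.976 for DfCS-Ib, HFD and chow (edgeR 4.0.16, R 4.3.3). Intervals are 95% exact (Clopper-Pearson) intervals of the binomial split of the counts of both libraries. A gene was called measured from a mean of 1 CPM upward, and the 2-fold rule used log2 of CPM plus 1. The ratio and interval code was tested on simulated data. Upstream windows came from RefSeq (GRCm38.p6, 250 bases) and transcripts from GENCODE M21. Of 100 entries of the related lists 99 were matched, Sult2a8 and Hsd17b8 by an older symbol. Hsd17b8, listed at 0, had no readable chromosome position. All 9 genes were named with their values, and of each related list at most 3 genes per comparison, those with the largest ratios past 2-fold; H6pd, Akr1d1, Nr3c1, Esr1, Hsd17b12, Hsd17b13, the single cell type markers and the genes given at 0 were added after their values were seen. The genes and lists were chosen with earlier results of these data known. Alternatives changed the scaling, pseudocount, filter, depth and threshold; DESeq2 1.42.0 gave size factors only. One gene of the receptor list is not reported here by name.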

Additional observations from a re-analysis of the deposited data

How the results depend on the processing

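For each of the 9 genes and each of the 3 comparisons, 7 alternatives of scaling, unit, pseudocount and depth were tried, since a filter on low values cannot alter the ratio of a single gene, and no log2 ratio of a gene past 2-fold changed sign. The log2 ratio of Hsd3b5 in HFD over chow ranged from 5.17 to 6.52 and that of Cyp17a1 from -2.96 to -2.43. For Hsd11b1 in DfCS-Ib over HFD, near 0, 4 of 7 alternatives had the other sign, and for Srd5a1 1 of 7. Hsd17b2 passed 2-fold in HFD over chow without TMM factors and with RPKM, which made 6 genes in place of 5. Without TMM factors the median log2 ratio of all genes was 0.11 for HFD over chow and -0.10 for DfCS-Ib over HFD. Summing all Hsd3b genes, Hsd3b7 included, gave ratios of 3.74 for HFD over chow, 0.449 for DfCS-Ib over HFD and 1.68 for DfCS-Ib over chow.

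Counts of all genes past 2-fold moved more. In HFD over chow the 755 genes became 1168 with a pseudocount of 0.1 CPM, 394 with 5 CPM, 2385 at 1.5-fold and 480 where the whole counting interval had to pass. In DfCS-Ib over HFD the 590 became 914, 294, 1944 and 355 in the same order, and in DfCS-Ib over chow the 270 became 583, 103, 1150 and 121, and 170 with a mean of at least 5 CPM. In the related lists the 15 genes of HFD over chow became 32 at 1.5-fold, the 8 of DfCS-Ib over HFD became 5 with 5 CPM, 24 at 1.5-fold and 4 with the whole interval, and the 8 of DfCS-Ib over chow became 16 at 1.5-fold. No paired analysis was possible because each group had 1 library, and none could be left out.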

Other observations

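Hydroxylases and conjugating enzymes, which clear steroids along with drugs and bile acids, went both ways. Of 14 measured hydroxylase genes 2 were at least 2-fold higher and 1 lower in HFD over chow, 1 higher and 1 lower in DfCS-Ib over HFD, and 2 higher and 2 lower in DfCS-Ib over chow, where 5.74%, 4.49% and 2.05% of all measured genes passed 2-fold in either direction. Cyp2b10, a testosterone hydroxylase and target of the receptor CAR, had 310, 477 and 76 counts in the DfCS-Ib, HFD and chow libraries, so that both HFD libraries were above chow. Cyp1a2, which hydroxylates oestrogens, had 5146, 11045 and 2779 counts in the same libraries and was 3.32-fold (3.19 to 3.47) above chow in the HFD library. Cyp3a16 had 37, 115 and 152 counts in these libraries, and its DfCS-Ib value was 2.59-fold (1.78 to 3.86) below HFD and 4.10-fold (2.84 to 6.04) below chow. Cyp39a1, an oxysterol hydroxylase, had 537, 358 and 1113 counts in the same libraries, lowest in HFD. Cyp7b1, which hydroxylates oxysterols and dehydroepiandrosterone, had 6084 counts in the DfCS-Ib library, 3280 in the HFD library and 2877 in the chow library, 2.22-fold (2.13 to 2.32) above HFD in the DfCS-Ib library, while its HFD and chow values were within counting error of each other.

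Among 13 measured conjugation genes, 1 was at least 2-fold higher in HFD over chow and 0 lower. Of all measured genes 3.47% were higher by as much and 2.27% lower. In DfCS-Ib over HFD 0 of the 13 were higher and 1 lower, beside 2.46% and 2.02% of all. In DfCS-Ib over chow 1 was higher and 0 lower, beside 1.62% and 0.433%. The gene higher in HFD over chow was Papss1, which makes the sulfate donor of sulfotransferases. Papss1 had 91, 258 and 72 counts in the DfCS-Ib, HFD and chow libraries. It was also the gene lower in DfCS-Ib over HFD, by 2.36-fold (1.85 to 3.04). Sult2a8, a sulfotransferase gene of liver, had 9766 counts in the DfCS-Ib library, 9566 in the HFD library and 4713 in the chow library, and was 2.08-fold (2.01 to 2.15) above chow in the DfCS-Ib library. Several of these genes have close copies, and no test was possible with 1 library per group.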
